A study of Mus musculus with 6 samples.

Results

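The miR-130 and miR-301 seed family comprised 4 of the 690 mouse microRNAs (miRNAs) measured on these arrays, mmu-miR-130a, mmu-miR-130b, mmu-miR-301a and mmu-miR-301b. The members were taken by name, because their guide strands share the seed, bases 2 to 8. The family was chosen by its seed and selected on earlier values of these same arrays, the zone differences between them, so its zone values, and any count of members past a threshold, are given as a description and read as no test. In femoral growth plate cartilage, 3 of the 4 members were measured well above background on all 6 arrays. The fourth, miR-301b, was not well above background on any. For the 3 measured members, both hypertrophic arrays lay below both proliferative arrays after scaling, with mean differences between 34.5% and 52.1% lower. That separation rested on the scaling of the arrays and moved with 1 proliferative array, as described below.

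Cartilage of the femoral growth plate was microdissected from C57BL/6 mice aged 12 days, in 3 groups of 2 one-colour arrays each: the proliferative, the prehypertrophic and the hypertrophic zone. All 6 shared strain, age and tissue and differed by zone alone, per the labels, and no treatment or genotype was named. Material of 5 growth plates was pooled and 100 ng of total RNA went onto each array. The labels speak of independent hybridisations without saying which animals went into which pool, so the spread between 2 arrays of a zone may be technical. Arrays are called 1 and 2 within a zone as names only.

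A miRNA guides the silencing complex to messenger RNAs, mainly through pairing of its seed with sites in their 3′ untranslated regions, so miRNAs with one seed can act on overlapping sets of targets. Background work in human cells ties miR-130 to repression of the adipogenic factor PPARG, and miR-130a in endothelial cells to the homeobox genes MEOX2 and HOXA5. In the growth plate, chondrocytes divide in columns in the proliferative zone, leave the cell cycle in the prehypertrophic zone, and enlarge in the hypertrophic zone, which borders the vessels and marrow of the forming bone. In microdissected tissue, fewer cells of a type and less of a miRNA per cell cannot be told apart.

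The guide strands are shown here because the shared seed defines the family and the bases after it set the members apart. The sequences are RefSeq's for build GRCm38.p6, written 5′ to 3′ with the seed in capitals, and 3 of the 4 members matched a mature entry. The array files name build mm9, so these coordinates belong to the reference and not to the array design.
mmu-miR-130a: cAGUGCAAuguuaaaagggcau
mmu-miR-130b: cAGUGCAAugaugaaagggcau
mmu-miR-301a: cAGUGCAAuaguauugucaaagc
mmu-miR-721: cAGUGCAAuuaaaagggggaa
The first lies at chr2:84741116-84741137 on the minus strand, the second at chr16:17124071-17124092 on the minus strand and the third at chr11:87113054-87113076 on the plus strand. The last, at chr5:136375777-136375797 on the minus strand, is not a member by the rule, but was found on the array with the same seed. The seed stood in 7 of the 1679 mature names of the reference table (0.417%), of which 4 were on the array.

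Beyond the seed, miR-130a and miR-130b were the closest pair. They were identical at 20 of 22 positions and differed by U11A and A13G, counted from 1 at the 5′ end with the base of miR-130a first. Both ended in the same 9 bases. miR-301a shared its first 9 bases with each of them, and the final bases differed. The array files used here give no probe sequences, and signal from one close relative on the probe of another was not tested.

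For miR-301b the hairpin shows how close it is in sequence to miR-301a. The Mir301b hairpin lies at chr16:17124400-17124496 (GRCm38.p6, minus strand), and the seed stands once in it, in capitals.
Mir301b: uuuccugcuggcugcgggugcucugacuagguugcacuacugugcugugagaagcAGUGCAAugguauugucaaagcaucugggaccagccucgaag
Over the 23 bases of mature miR-301a, the matching stretch of this hairpin was identical at 22, and the 1 difference was A10G, with the base of miR-301a first. The hairpins of Mir130b and Mir301b are neighbours on chromosome 16, 257 bases apart on the same strand, and both overlap the protein-coding gene 2610318N02Rik. The hairpin of miR-301a, RefSeq's Mir301, overlaps Ska2, a protein-coding gene of the mitotic spindle and kinetochore complex. No annotated gene other than Mir130a itself overlapped the miR-130a hairpin.

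Detection was read from the flag that marks a spot as well above its background, with a probe counted when more than 50% of its unflagged spots carried it. For miR-130a, 114 of 114 unflagged spots of its 2 probes over the 6 arrays were well above background. For miR-130b the count was 62 of 114 spots, with all 54 unflagged spots of its brighter probe among them. For miR-301a it was 59 of 116, all 59 of them on its brighter probe. The dimmer probe of miR-130b was well above background on 1 array, proliferative array 1, and the dimmer probe of miR-301a on 0 arrays.

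miR-301b was carried by 4 probes with 0 of 118 unflagged spots well above background. Mean processed signals of those probes ran from -6.99 to 1.35 linear units, and from -7.52 to 1.04 after the scaling described below. The lowest scaled signal that counted as well above background was 11.4 to 17.4 units over the 6 arrays. The files' own call per miRNA was not detected on all 6 arrays. The other strand of a member's hairpin on the array, miR-130b*, gave the same picture, with 0 of 119 unflagged spots well above background and probe means between -3.23 and 1.89. No level or zone pattern is therefore given for these 2 miRNAs. Lack of signal does not show absence, since the dimmer probe of the detected miR-301a was well above background on 0 arrays. The count of 3 detected members held when all unflagged spots had to be well above background, when any probe could count, and with the files' own call.

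Before any scaling, the brighter probe of miR-130a had mean processed signals of 230 and 109 units on the proliferative arrays, 146 and 143 on the prehypertrophic arrays and 80.9 and 138 on the hypertrophic arrays. For miR-130b these were 49.7 and 21.7 units (proliferative), 33.2 and 33.1 units (prehypertrophic) and 22.1 and 33.2 units (hypertrophic). For miR-301a they were 49.8 and 28.4 units (proliferative), 29.5 and 38.6 units (prehypertrophic) and 25.4 and 46.6 units (hypertrophic). On this unscaled scale the hypertrophic and proliferative arrays overlapped for each of these 3 members, with hypertrophic array 2 above proliferative array 2. Spots of one probe on one array varied by 2.51% to 12.4% (coefficient of variation), far less than the 2 arrays of the proliferative zone differed.

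**Figure D1:**
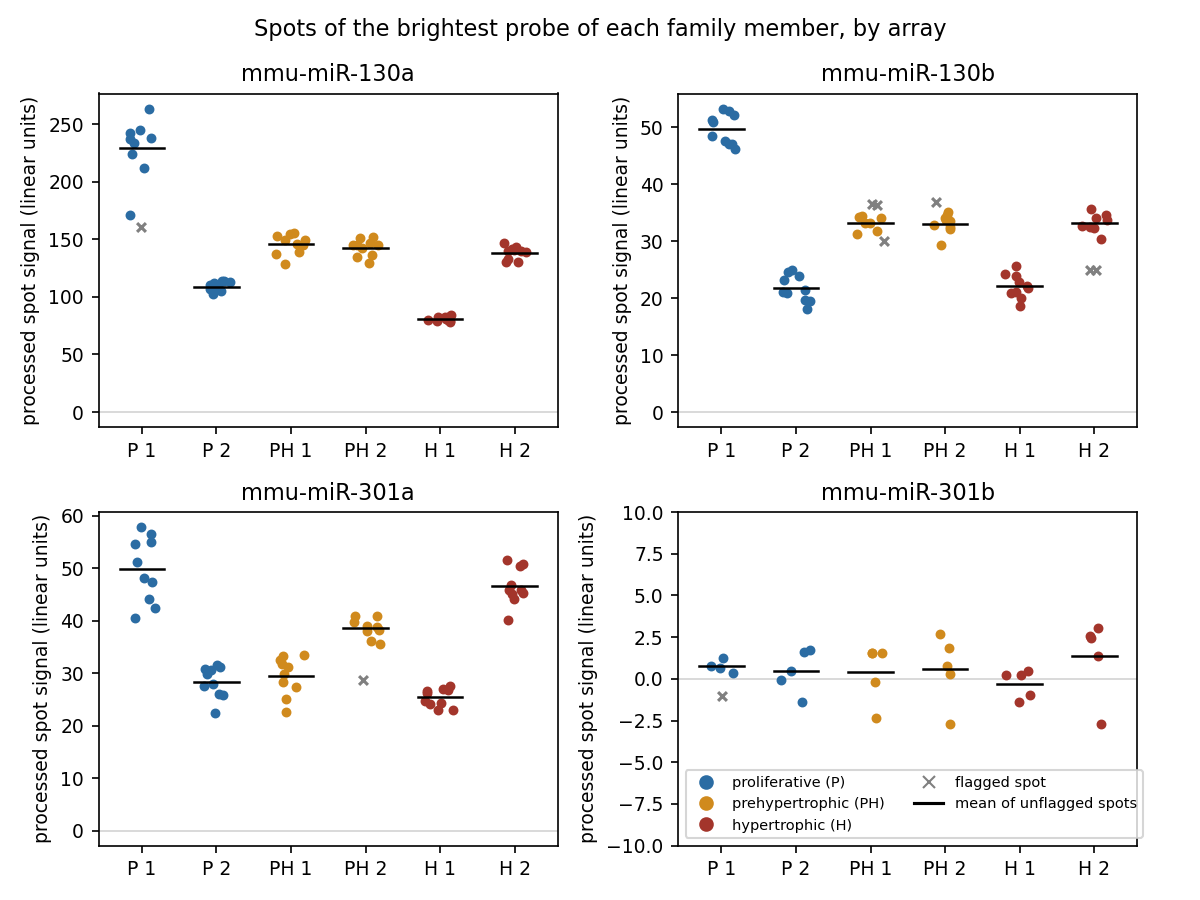
Processed signal (linear units, after the scanner software's background subtraction) of each spot of the brightest probe of the 4 members, by array (P, proliferative; PH, prehypertrophic; H, hypertrophic; 1 and 2, the arrays of a zone); bars are means of unflagged spots and crosses are flagged spots. Proliferative array 1 has the highest mean for miR-130a, miR-130b and miR-301a, and the spots of miR-301b scatter around 0 on every array.

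Signals were then scaled so that the 75th percentile of the 342 probes well above background on all arrays was equal, with scale factors from 0.743 for proliferative array 2 to 1.30 for hypertrophic array 2. Scaled values, in the units of the processed signal and on the log2 scale, are used from here on, with the brighter probe standing for each miRNA. Probes have different brightness per molecule, so levels are set against each other only within a miRNA.

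miR-130a had scaled signals of 256 and 147 on the proliferative arrays, 145 and 135 on the prehypertrophic arrays and 81.2 and 106 on the hypertrophic arrays. The zones followed each other without overlap, although the lower proliferative array lay just above the higher prehypertrophic one. On the log2 scale the zone means were 7.60 ± 0.57 for proliferative, 7.13 ± 0.08 for prehypertrophic and 6.54 ± 0.28 for hypertrophic cartilage (SD, n = 2 each). The hypertrophic minus proliferative log2 difference was -1.06 (SE 0.31, 95% interval -1.76 to -0.36), which is 52.1% lower in the hypertrophic zone. The prehypertrophic minus proliferative log2 difference was -0.47 (SE 0.31) and lay within the SD of the proliferative arrays. The hypertrophic minus prehypertrophic log2 difference was -0.59 (SE 0.31, 95% interval -1.29 to 0.11). The dimmer probe of miR-130a, also well above background on all 6 arrays, had log2 differences of -1.09, -0.44 and -0.65 for the same 3 comparisons, close to those of the brighter probe.

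miR-130b had scaled signals of 55.4 and 29.2 on the proliferative arrays, 33.1 and 31.2 on the prehypertrophic arrays and 22.2 and 25.5 on the hypertrophic arrays. Both hypertrophic arrays were below the other 4, while both prehypertrophic arrays lay between the 2 proliferative ones. The log2 means were 5.33 ± 0.65 for proliferative, 5.01 ± 0.06 for prehypertrophic and 4.57 ± 0.14 for hypertrophic cartilage (SD, n = 2 each). The hypertrophic minus proliferative log2 difference was -0.76 (SE 0.32, 95% interval -1.47 to -0.05), or 40.9% lower. The hypertrophic minus prehypertrophic log2 difference was -0.43 (SE 0.32), with an interval reaching from -1.15 to 0.28. The prehypertrophic minus proliferative log2 difference of -0.32 (SE 0.32) was smaller than the SD of the proliferative arrays, and the arrays overlapped.

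miR-301a had scaled signals of 55.6 and 38.2 on the proliferative arrays, 29.4 and 36.4 on the prehypertrophic arrays and 25.4 and 35.8 on the hypertrophic arrays. Both proliferative arrays were above the other 4, and the prehypertrophic and hypertrophic arrays overlapped. Its log2 means were 5.53 ± 0.38 for proliferative, 5.03 ± 0.22 for prehypertrophic and 4.92 ± 0.35 for hypertrophic cartilage (SD, n = 2 each). The log2 difference was -0.61 (SE 0.30, 95% interval -1.27 to 0.05) for hypertrophic minus proliferative, or 34.5% lower, and -0.49 (SE 0.30) for prehypertrophic minus proliferative. For hypertrophic minus prehypertrophic it was -0.12 (SE 0.30, 95% interval -0.78 to 0.55), smaller than the SD of either zone.

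With all 6 arrays and the scaling used here, zone means ran proliferative, prehypertrophic, hypertrophic from high to low for each of the 3 measured members. For miR-301a the lower 2 of these zones changed places in 4 of 21 other settings: hypertrophic minus prehypertrophic was 0.13 log2 units without hypertrophic array 1, 0.04 without prehypertrophic array 2, 0.03 without scaling and 0.05 with the files' total signal per miRNA. For miR-130b the upper 2 changed places in 3 of 21: prehypertrophic minus proliferative was 0.14 without proliferative array 1 and with slide row as a block, and 0.01 without scaling. The zones whose arrays did not overlap also differed between members. For miR-130a and miR-130b both prehypertrophic arrays were above both hypertrophic ones, and for miR-301a they overlapped. Whether the members differ from each other in zone pattern was not tested.

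**Figure D2:**
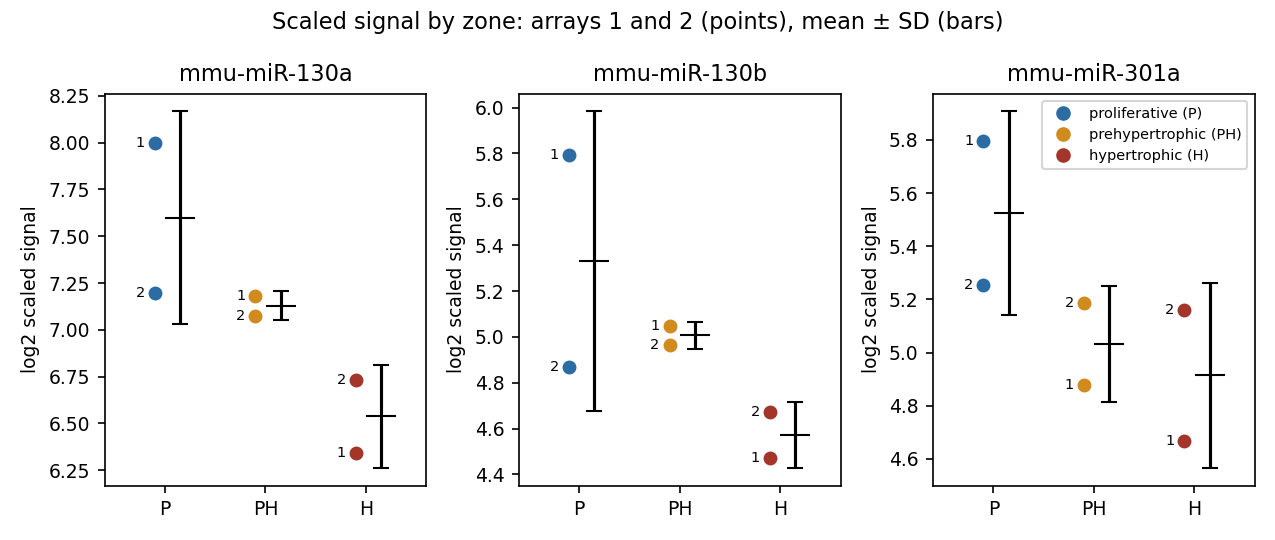
Log2 scaled signal of miR-130a, miR-130b and miR-301a in the proliferative (P), prehypertrophic (PH) and hypertrophic (H) zones; points are arrays 1 and 2 and bars are the mean ± SD of the 2. The vertical axes differ between panels and do not start at 0; the 2 proliferative arrays are 0.54 to 0.92 log2 units apart, and the hypertrophic mean is the lowest of each panel.

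Proliferative array 1 was the highest of the 6 arrays for each of the 3 members. It exceeded proliferative array 2 by 0.81 log2 units for miR-130a, 0.92 for miR-130b and 0.54 for miR-301a, while the median of the same array difference over the 226 tested miRNAs was -0.11. Ranked from the highest of the 226 such differences, the members stood at places 19, 12 and 51. Without proliferative array 1 the hypertrophic minus proliferative log2 difference was -0.66 for miR-130a, -0.30 for miR-130b and -0.34 for miR-301a. Without proliferative array 2 it was -1.46, -1.22 and -0.88. The direction was the same with either array left out, and the size moved by more than 1.5 times for each member without proliferative array 1 and for miR-130b without proliferative array 2. The log2 difference of miR-301a also depended on hypertrophic array 1, without which it was -0.36. The prehypertrophic minus proliferative log2 difference of miR-130b changed sign, to 0.14, without proliferative array 1.

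The 3 measured members were among 226 miRNAs tested, those with both arrays of some zone well above background. In the hypertrophic minus proliferative comparison, limma with Benjamini-Hochberg adjustment called 33 of the 226 (14.6%), and 20 (8.85%) were called lower. The count of members past the same threshold was 1 of 3, miR-130a. It was 0 without proliferative array 1, hypertrophic array 1 or hypertrophic array 2, and 2 without proliferative array 2. Nothing is read from this count, since the family was chosen with this comparison known. In prehypertrophic minus proliferative, limma called 5 of 226 (2.21%), and 0 members. In hypertrophic minus prehypertrophic, limma called 3 of 226 (1.33%), again with 0 members.

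Arrays that do not overlap were counted in the same way. Both hypertrophic arrays were below both proliferative arrays for 3 of 3 measured members and for 27% of the 226 miRNAs. Both prehypertrophic arrays were below both proliferative arrays for 2 of 3 members and for 24.3% of all. Both hypertrophic arrays were below both prehypertrophic arrays for 2 of 3 members and for 32.7% of all.

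The median log2 difference of the 3 members was -0.76 for hypertrophic minus proliferative, beside -0.00 over all 226 miRNAs. Counted from the lowest difference, miR-130a stood at place 13, miR-130b at place 35 and miR-301a at place 46 of 226. In prehypertrophic minus proliferative the members' median was -0.47 beside -0.14 over all miRNAs, and 67.7% of all miRNAs were below 0 there as well. In hypertrophic minus prehypertrophic the medians were -0.43 and -0.04, with miR-301a at place 102, near the middle of the ranking. These comparisons share arrays, so they are not separate evidence.

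**Figure D3:**
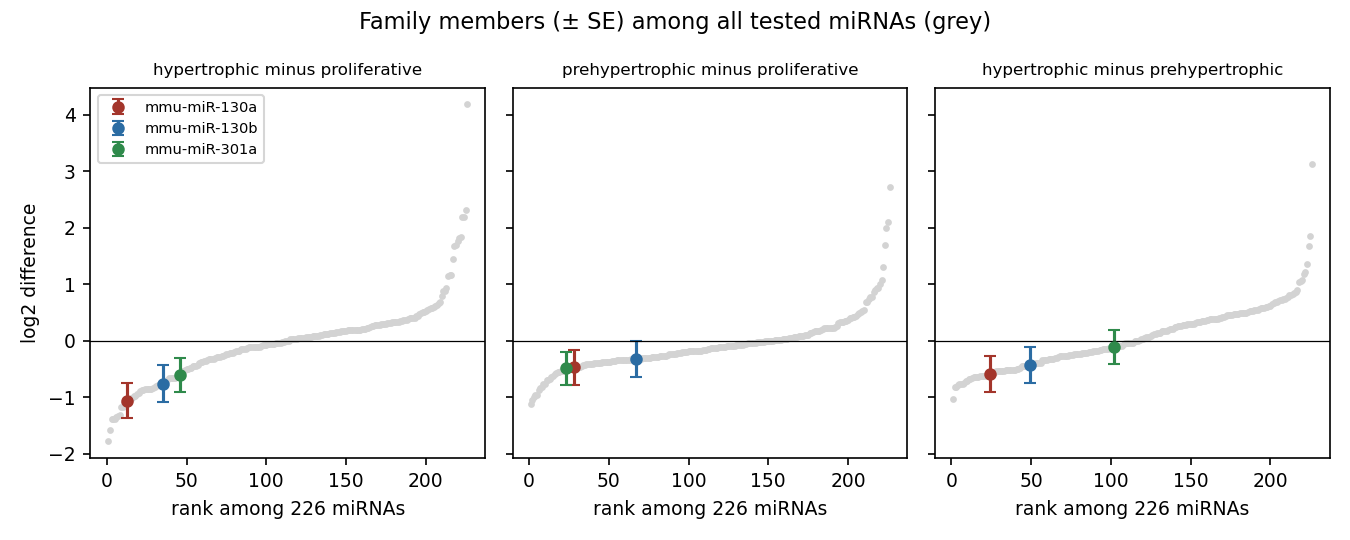
Log2 difference of each of the 226 tested miRNAs (grey points), ranked from lowest to highest within each of the 3 comparisons, with miR-130a, miR-130b and miR-301a in colour and bars for their SE. The members sit at places 13, 35 and 46 in hypertrophic minus proliferative, and at places 24, 49 and 102 in hypertrophic minus prehypertrophic.

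Slide position, taken from the last 2 numbers of each scan's name read as row and column, moved with zone. Both hypertrophic arrays lay in slide row 1, both prehypertrophic arrays in row 2, and the proliferative zone had 1 array in each. Within row 1, the hypertrophic minus proliferative log2 difference was -1.46 for miR-130a, -1.22 for miR-130b and -0.88 for miR-301a, from 2 arrays against 1. Within row 2, the prehypertrophic minus proliferative log2 difference was -0.07, 0.14 and -0.22 for the same miRNAs. The proliferative array of row 1 is array 1, the brighter one, so row and that array cannot be told apart. No row held both the hypertrophic and the prehypertrophic zone, so that comparison has no value within a row. With slide row as a block, which links the rows through 1 proliferative array in each, the hypertrophic minus prehypertrophic log2 difference was -1.40 for miR-130a, -1.36 for miR-130b and -0.66 for miR-301a.

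The sample titles run in 2 sets of 3, each with 1 array of every zone, and what the sets stand for is not given in the sources used here. Within the sets the hypertrophic minus proliferative log2 difference was -1.27 and -0.85 for miR-130a, -1.12 and -0.40 for miR-130b, and -0.63 and -0.59 for miR-301a. The members were therefore lower in the hypertrophic zone in both sets. The prehypertrophic minus proliferative log2 difference was -0.82 and -0.12 for miR-130a, -0.74 and 0.09 for miR-130b, and -0.92 and -0.07 for miR-301a, and so lay almost wholly in the first set. For hypertrophic minus prehypertrophic the values were -0.45 and -0.73 for miR-130a, -0.37 and -0.49 for miR-130b, and 0.28 and -0.52 for miR-301a.

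Among themselves, the members' log2 levels over the 6 arrays ran closest for miR-130a and miR-130b, the pair with the most alike sequence, with a Pearson correlation of 0.974. It was 0.875 between miR-130a and miR-301a and 0.846 between miR-130b and miR-301a. These 6 points share the libraries and their scaling, and no p-value is given. Other miRNAs followed the members more closely than they followed each other. miR-130b ranked 7 among the tested miRNAs in likeness to miR-130a, and miR-301a ranked 37 in likeness to miR-130a and to miR-130b.

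Outside the family, the levels most like those of miR-130a over the 6 arrays were those of miR-15b (r = 0.993), miR-140* (r = 0.993) and let-7f (r = 0.992). miR-140* is the partner strand of miR-140, the miRNA best known from cartilage. The hypertrophic minus proliferative log2 differences of these 3 were -1.33, -0.98 and -0.67. For miR-130b they were miR-652 (r = 0.992), miR-23b (r = 0.982) and miR-107 (r = 0.9752). For miR-301a they were miR-25 (r = 0.954), miR-434-3p (r = 0.929) and miR-23b (r = 0.921), the correlations over the same 6 arrays being lower than for the other members.

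**Figure D4:**
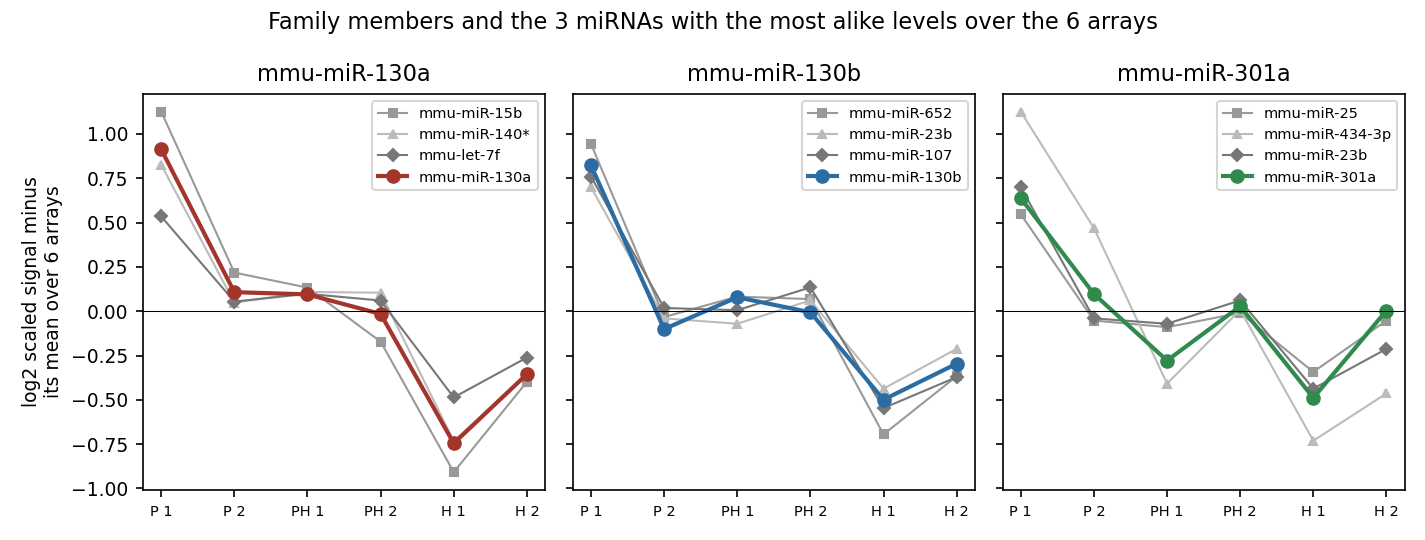
Log2 scaled signal of each measured member minus its mean over the 6 arrays (coloured line), with the 3 other miRNAs whose levels correlated most with it (grey lines), by array (P, proliferative; PH, prehypertrophic; H, hypertrophic). Every line is highest on proliferative array 1 and lowest on hypertrophic array 1; the lines join separate arrays and stand for no time course.

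miR-721, which has the family's seed and was found through it, differed in where it was detected. Its brightest probe was well above background on both hypertrophic arrays and on 0 of the other arrays. The files' own call per miRNA was wider, with miR-721 detected on both hypertrophic arrays and also on proliferative array 2 and prehypertrophic array 2. Scaled signals were 8.09 and 14.6 on the proliferative, 6.95 and 11.04 on the prehypertrophic and 18.7 and 13.03 on the hypertrophic arrays, near the floor of 12.8 units. With signals below the floor set to it, the hypertrophic minus proliferative log2 difference was 0.19 (SE 0.27, 95% interval -0.41 to 0.79), and the arrays overlapped. For hypertrophic minus prehypertrophic it was 0.28 (SE 0.27, 95% interval -0.32 to 0.88). Neither difference was past the limma threshold. miR-721 was among the tested miRNAs through the hypertrophic arrays alone, so no test is read from these differences.

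The miRNAs whose seeds hold 6 of the same bases shifted by 1 position are a natural comparison: miR-148a, miR-148b and miR-152, with the seed CAGUGCA, and miR-19a and miR-19b, with the seed GUGCAAA. The miR-148/152 group is known for targeting the DNA methyltransferase DNMT1, and miR-19a and miR-19b belong to the miR-17 cluster. Of the 5, miR-148b was well above background on 0 arrays and 4 were tested. Of those, limma called 0 in each of the 3 comparisons, and 0 had an unadjusted p under 0.05. Over all 226 miRNAs limma called 14.6% for hypertrophic minus proliferative. For prehypertrophic minus proliferative it called 2.21%, and for hypertrophic minus prehypertrophic 1.33%. With 4 miRNAs tested, nothing is read from a count of 0. Their median log2 difference was 0.04 for hypertrophic minus proliferative, beside -0.76 for the 3 family members and -0.00 over all miRNAs. The family was selected on zone differences of these same arrays, so nothing is read from its distance to this list. miR-19a was near the floor of 3.68 in the proliferative zone, with a log2 mean of 3.71 and 1 array well above background. For prehypertrophic minus proliferative the median was 0.42, and for hypertrophic minus prehypertrophic it was -0.41.

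The cartilage list checks the labelled tissue and is given beside the family. Of 6 cartilage miRNAs, 5 were tested and 4 were well above background on all 6 arrays, miR-140, miR-140*, miR-455 and miR-455*. The median hypertrophic minus proliferative log2 difference of the 5 was -0.78. Of the 5, limma called 1 lower, miR-675-3p, beside 8.85% of the 226 miRNAs. It was not well above background on either hypertrophic array, where its log2 mean was at the floor of 3.68. No test is therefore read from its call. miR-140 itself had a log2 difference of -0.76 (SE 0.30, limma adjusted p = 0.138), and miR-455* one of 0.37 (SE 0.26, limma adjusted p = 0.484), the 1 value above 0 among the 5. In the other 2 comparisons limma called 0 of the 5, with 1 at an unadjusted p under 0.05 in each. The shares called over all 226 miRNAs were 2.21% for prehypertrophic minus proliferative and 1.33% for hypertrophic minus prehypertrophic. The summed scaled signal of the cartilage list was 10539 and 6574 units on the proliferative arrays, 6937 and 7037 on the prehypertrophic arrays and 3972 and 4994 on the hypertrophic arrays. It was highest on proliferative array 1, as were the family members.

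The summed signals of the blood and endothelial lists were highest on the hypertrophic arrays, through few of their members. The blood and marrow list of 8 summed to 27.4 and 43.4 units on the proliferative arrays, 45.8 and 48.5 on the prehypertrophic arrays and 270 and 294 on the hypertrophic arrays. miR-451, made in red blood cells, was higher in the hypertrophic than in the proliferative zone by 4.18 log2 units (SE 0.25, limma adjusted p = 1.9e-06). It was well above background on 1 of 2 proliferative arrays. Its proliferative log2 mean of 3.745 lay near the floor of 3.68, so the size and SE of this difference depend on the floor. miR-144, miR-142-3p, miR-142-5p, miR-150 and miR-155 were well above background on 0 arrays. miR-223, of myeloid cells, had a hypertrophic minus proliferative log2 difference of 0.88 (SE 0.29). Its probe passed the flag on 0 proliferative arrays, where its log2 mean of 3.73 lay near the floor of 3.68. It entered the tested set through the hypertrophic zone alone, so no test is read from its difference. miR-486, of red blood cells, was well above background on 1 hypertrophic and 1 proliferative array, was not tested, and had log2 means of 3.86 and 3.94 in those zones. Of the 2 endothelial miRNAs, miR-126-3p passed the background flag on the hypertrophic arrays only, where the list summed to 35.2 and 47.9 units, and miR-126-5p on 0 arrays. Of 5 skeletal muscle miRNAs, 4 were well above background on 0 arrays (miR-206, miR-133b, miR-133a and miR-1). The other, miR-208b, was well above background on all 6 arrays. The summed signal of that list, with signals below background included, was 159 and 168 units (proliferative), 166 and 123 (prehypertrophic) and 121 and 120 (hypertrophic). The part of these other cells, or of a change in cartilage RNA as a whole, in the family's zone levels was not tested.

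The direction of the hypertrophic minus proliferative difference was the same under each of the 21 other settings tried, for each of the 3 members. Several settings could not move it and repeat the reported values: 0.5 times the floor, no filter, the stricter filter and the trended robust fit. So do the title sets as a block and either prehypertrophic array left out. Slide row as a block gave the same values as leaving out proliferative array 2. For miR-130a the difference ranged from -1.46 to -0.58 log2 units, for miR-130b from -1.22 to -0.28 and for miR-301a from -0.88 to -0.13. The smallest values came from signals with no scaling between arrays, where the median over all miRNAs was 0.45 and the members' median was -0.28, that is, -0.73 relative to all miRNAs.

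**Figure D5:**
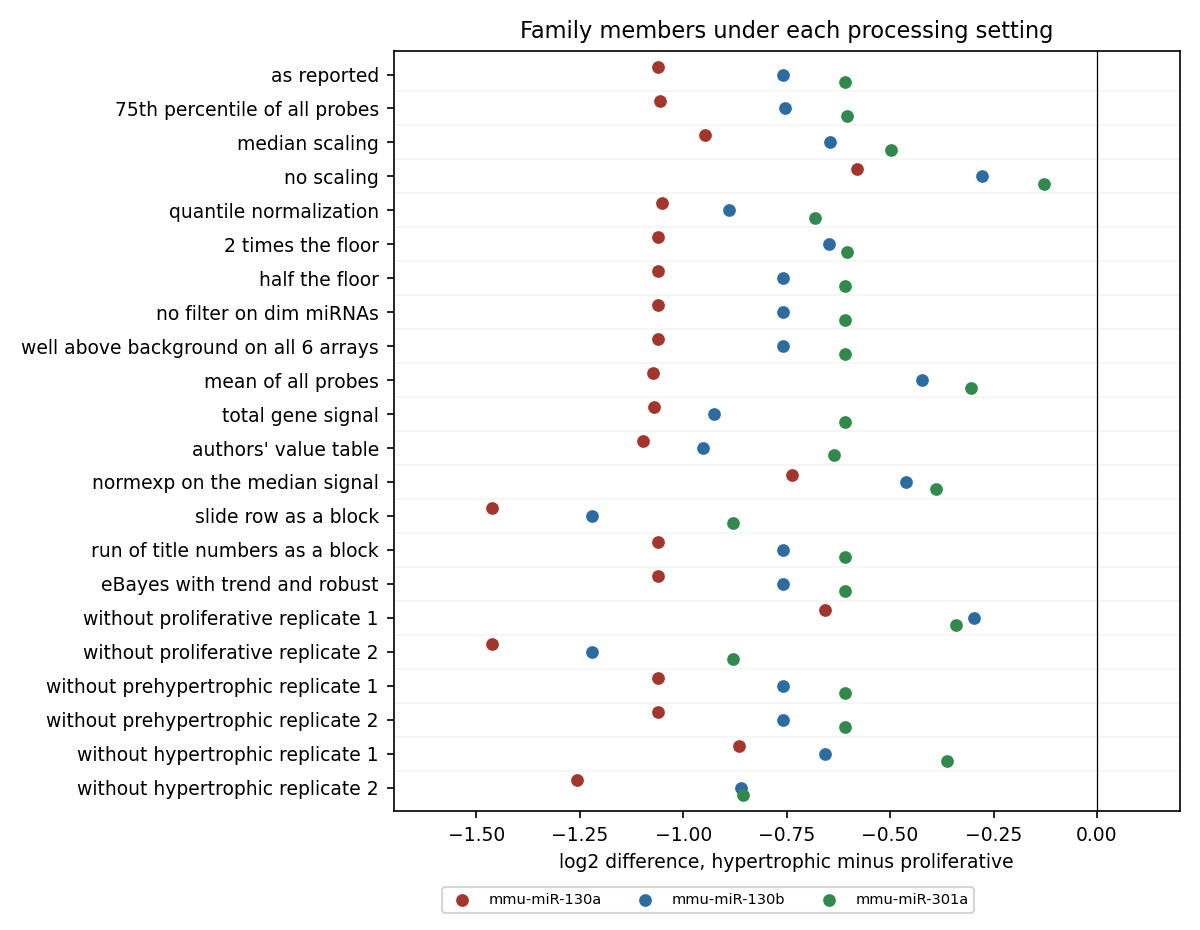
Hypertrophic minus proliferative log2 difference of miR-130a, miR-130b and miR-301a as reported (top row) and under each of 21 other settings: scaling, floor, filter, choice of probe or signal, design, and each array left out. Every point lies below 0, from -1.46 to -0.13, with the values nearest 0 for signals with no scaling.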

How the data were processed

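The authors hybridised cartilage RNA to one-colour Agilent arrays (miRBase version 14 design) and analysed the scans in GeneSpring, per the labels. Per the file headers, Feature Extraction 10.7.3.1 gave each spot's deposited intensity as a processed, background-subtracted signal. The log2 values deposited by the authors in a second table were, by comparison with the scanner files, the log of each miRNA's total signal (at least 1) less 1 constant per array (departures of at most 1.3e-06), with column medians of -4.399 and -4.254 (proliferative), -4.46 and -4.455 (prehypertrophic) and -4.689 and -4.943 (hypertrophic). That table was one of the alternatives.

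There were 13800 miRNA spots from 1928 probes on an array. Flagged outlier spots (384 to 515 per array) were left out, 0 spots were saturated, and 24.2% to 27.9% were well above background. The number of arrays limits the precision. Processed signals were averaged per probe, scaled as described, set to a floor of 12.84 units, 3.68 in log2 (the lowest scaled signal above the background flag, as a median of the 6 arrays), and log2 transformed. The brightest probe stood for a miRNA. Contrasts between zones were fitted over 226 miRNAs with limma 3.58.1 in R 4.3.3 (zone alone, all 6 arrays sharing 1 estimate of spread, 10.2 degrees of freedom, threshold 0.05 on adjusted p). The script was tested on simulated data.

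The members, the marker and offset-seed lists and the rules for named miRNAs (the members, miRNAs with their seed, the other hairpin strand, the listed miRNAs, and the 3 most correlated per member) were chosen with earlier results of these data known. miRNA sequences came from RefSeq.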

Additional observations from a re-analysis of the deposited data

How the results depend on the processing

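Without scaling, the hypertrophic minus proliferative log2 difference was -0.58 for miR-130a, -0.28 for miR-130b and -0.13 for miR-301a, and the prehypertrophic minus proliferative difference of miR-301a was -0.16. No scaling also shifted the median over all miRNAs, by 0.46 for hypertrophic minus proliferative and 0.30 for prehypertrophic minus proliferative. The hypertrophic minus prehypertrophic difference of miR-130b was -0.55 with a 75th percentile over all probes, -0.29 without scaling, -0.68 with quantile normalization, -0.22 as the mean of its probes, -0.84 in the authors' value table, -0.19 with normexp and -1.36 with slide row as a block. With slide row as a block it was -1.40 for miR-130a and -0.66 for miR-301a, and in the authors' value table -0.82 for miR-130a. The count of members past the threshold in hypertrophic minus proliferative, 1 as reported, was 0 with a 75th percentile over all probes, a median, no scaling, quantile normalization, 2 times the floor, no filter, the mean of all probes, total gene signal and the authors' value table, and 2 with slide row as a block. It ranged from 0 to 2 with 1 array left out: 0 without proliferative array 1 or either hypertrophic array, 2 without proliferative array 2.

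Over all miRNAs, the hypertrophic minus proliferative count of 33 (13 higher, 20 lower) was 11 (10 and 1) with a 75th percentile over all probes, 12 (11 and 1) with the median, 15 (15 and 0) without scaling, 19 (11 and 8) with quantile normalization, 8 with 2 times the floor, 1 with no filter, 20 with the mean of all probes and 20 in the authors' value table, and 1 to 45 with 1 array left out. The prehypertrophic minus proliferative count of 5 was 3 with a 75th percentile over all probes, a median or the stricter filter, 1 without scaling, 0 with 2 times the floor or no filter, 8 with 0.5 times the floor, 11 with total gene signal, 10 in the authors' value table, 13 with a trended robust fit and 0 to 10 with 1 array left out. The hypertrophic minus prehypertrophic count of 3 was 5 without scaling, 1 with 2 times the floor, no filter, the stricter filter, the mean of all probes or slide row as a block, 6 with total gene signal, 5 with the title sets as a block, 11 with a trended robust fit and 1 to 3 with 1 array left out. The cause of these changes was not tested.

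The normexp setting was run on median spot signals and was added after seeing the data; the planned setting on mean spot signals was not run. Where 1 array of a zone is left out, the lone array is assumed to vary like the others. The labels give no replicate numbers shared between zones. With the 2 title sets as a block, 1 member was past the threshold. The hypertrophic minus proliferative differences were then -1.06, -0.76 and -0.61 for miR-130a, miR-130b and miR-301a. Each set holds 1 array of every zone, so this block could change only the SE of these differences and not their size. miR-130b and miR-301a were dim, with zone means of 4.57 to 5.53 on the log2 scale against a floor of 3.68, and their second probes were mostly below background.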
